A study of Zea mays with 12 samples.

Results

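The genes described here are 219 transcripts of the maize seedling leaf that dropped strongly within 1 h of blue light both in wild-type B73 and in the zmcryq mutant. They were chosen by their measured responses. On log2(FPKM + 1), after scaling of the libraries to one another, the mean of the blue libraries had to lie at least 2 below the mean of the dark libraries in each genotype, and the 2 changes had to be less than 1 apart. Because of the added 1, these limits are not exact folds of the level: up to 24.2% of the dark level was left in B73 and up to 26% in zmcryq. Of 44303 gene IDs in the deposited table, 21472 reached 1 FPKM in at least 3 libraries and were tested, and the 219 members are 1.02% of these. FPKM counts sequenced fragments relative to the length of a transcript and to all mapped fragments of its library, and every level below is on that scale.

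RNA came from leaves of 7-day-old seedlings of the inbred line B73, labelled wild type, and of the zmcryq mutant. All plants had grown in white light under long days and then spent 48 h in the dark. They were then either left in the dark or exposed to blue light for 1 h, which gives 4 groups of 3 libraries: B73 dark, B73 blue, zmcryq dark and zmcryq blue. The labels name neither the mutated genes nor the alleles of zmcryq, and they do not say whether the libraries of a group are separate plants. The p-values below therefore reflect only how much these libraries vary, and that variation may be technical.

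Plants sense blue light mainly through cryptochromes, flavin-binding receptors that act in the nucleus, and through phototropins, kinases at the plasma membrane. Phytochromes, the red and far-red receptors, absorb some blue light too, and photosynthesis uses it as an energy source. In Arabidopsis, transcription factors of the PIF family and the COP1 ubiquitin ligase are active in darkness and are restrained by light-activated phytochromes and cryptochromes. Transcripts that build up in darkness and fall on illumination are a well-known class of light-responsive genes. The working name for the 219 genes, cryptochrome-independent repression, states only that they fell in both genotypes. How much cryptochrome activity the mutant retains was not measured in these data.

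The gene IDs have the form used for the B73 annotation, Zm00001eb followed by digits, and the table of gene names used as reference holds 0 of them. Individual genes are therefore given by ID alone, for 2 members per direction of a comparison, and without a function. Pathway lists, the leaf and cell type markers and the cryptochrome genes are written as names, so they were not analysed here, and neither the leaf label nor the mutation was checked in the data. Leaf RNA is a mixture of cell types, and fewer cells of a type and less RNA per cell cannot be told apart.

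The libraries summed to 588717 to 814802 FPKM, and the factors used for scaling were lowest (0.507) in replicate 1 of zmcryq dark and highest (1.64) in replicate 3 of zmcryq blue. Each factor is the median ratio of a library to the geometric mean over 19555 genes. Replicate 2 of B73 blue (0.567) and replicate 1 of zmcryq dark had the lowest factors of all libraries. The 20 most abundant genes held 34.6% and 39.4% of the total in these libraries and 10.1% to 33.6% in the other 10. Scaling moved the median change of all tested genes on blue light from 0.56 to 0.01 (log2) in zmcryq and from 0.02 to 0 in B73, so a zmcryq fall is deeper by about that much than in the values as deposited. Whether most genes shifted together in zmcryq cannot be told from these values.

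In the dark most members were well-expressed transcripts. The median level of the members was 43.3 scaled FPKM in B73 and 47.5 in zmcryq, against 7.59 and 7.41 for all genes tested. The quartiles of the members were 16.4 and 135 scaled FPKM in B73, and 19.1 and 137 in zmcryq. Dark levels above 100 were found for 69 members in B73 and 72 in zmcryq. The rule itself needs a dark level of about 3 scaled FPKM in both genotypes, which 13503 of the tested genes had, so part of this height follows from the choice. The lowest dark means were 4.17 in B73 and 4.37 in zmcryq. A few members were at 0 in a dark library: 1 in replicate 1 and 2 in replicate 3 of B73 dark, and 1 in replicate 3 of zmcryq dark. Their dark means rest on the remaining libraries.

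After 1 h of blue light the median member stood at 3.77 scaled FPKM in B73 and 5.51 in zmcryq, below the medians of 7.85 and 7.5 for all genes tested. On linear values without a pseudocount, a median of 10.4% of the dark level was left in B73 and 9.88% in zmcryq. Less than 10% was left for 105 members in B73 and 111 in zmcryq. In B73 32 members, and in zmcryq 35, lay under 1 scaled FPKM in all 3 blue libraries. At the other end, 11 members in B73 and 12 in zmcryq still exceeded 100 scaled FPKM in blue light.

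Library by library, the median member of wild type read 45.9, 42 and 44.9 scaled FPKM in the dark and 3.62, 4.21 and 3.77 in blue light. The mutant read 50.7, 46 and 44.7 in the dark and 5.63, 5.95 and 4.9 in blue light. The dark and blue libraries formed separate sets in both genotypes, with no library between them. The members were chosen for their falls in these same libraries, so the separation is a description and nothing is read from it. The values as deposited, without scaling, showed the same separation: 44 to 53.1 FPKM in B73 dark, 2.39 to 5.6 in B73 blue, 25.7 to 49.4 in zmcryq dark and 5.16 to 8.06 in zmcryq blue.

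As a share of all FPKM in a library, the members of wild type held 6.7%, 6.22% and 5.71% in the dark and 1.24%, 0.6% and 1.12% in blue light. In zmcryq they held 4.04%, 6.28% and 4.47% in the dark and 1.04%, 0.897% and 1.15% in blue light. Group means were 6.21 ± 0.495% (SD, n = 3), 0.987 ± 0.34%, 4.93 ± 1.19% and 1.03 ± 0.125% in that order. The lowest dark share in zmcryq and the lowest blue share in B73 belong to the 2 libraries with the lowest factors. This share was carried by few genes: the 10 most abundant members held 54.1% of the members' FPKM in B73 dark and 52.7% in zmcryq dark. Without those 10, the share in B73 was 2.86 ± 0.141% in the dark and 0.349 ± 0.105% in blue light, and in zmcryq 2.33 ± 0.562% and 0.43 ± 0.0304% (SD, n = 3 each).

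**Figure D1:**
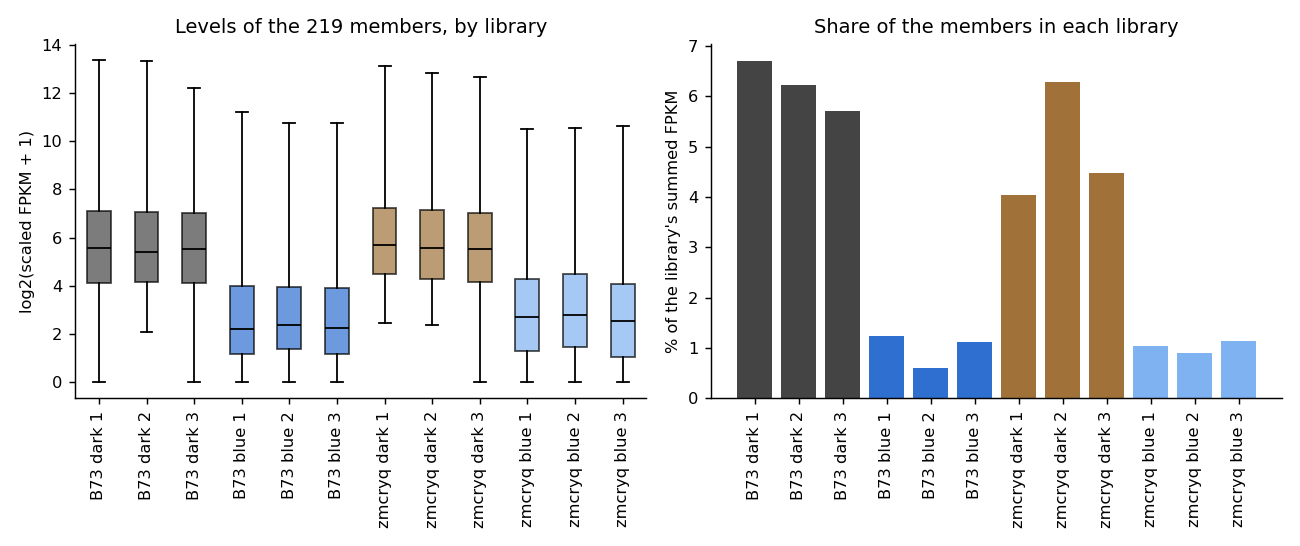
Left, level of the 219 members in each of the 12 libraries as log2(scaled FPKM + 1), with the box spanning the quartiles, the line at the median and whiskers to the lowest and highest member. Right, share of each library's summed deposited FPKM that the members held, which lies between 4.04% and 6.7% in the dark libraries and between 0.6% and 1.24% in the blue ones.

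The most abundant member was listed in B73 at 12159.47, 10715.7 and 4679.09 FPKM in the dark libraries and at 3450.9, 969.74 and 2551.37 in the blue ones. In zmcryq it was listed at 4485.06, 7903.72 and 4733.95 FPKM in the dark and at 1861.62, 1310.6 and 2589.7 in blue light. Every blue library was below every dark library, although the dark replicates of B73 spread more than 2-fold. After scaling, B73 had 8490 ± 3270 FPKM in the dark and 1940 ± 389 in blue light, and zmcryq 7560 ± 1180 and 1520 ± 52.1 (SD, n = 3 each).

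The changes that chose the members are given as a description, with no test. The fall ran from 2.01 to 4.81 on the log2 scale in B73, with a median change of -2.82. In zmcryq it ran from 2 to 5.03, with a median change of -2.8. Falls of 3 or more were measured for 80 members in B73, 91 in zmcryq and 64 in both, and falls of 4 or more for 21, 16 and 10. On this scale the fall was deeper in B73 for 115 members and in zmcryq for 104. For 140 of the 219 members the genotypes were less than 0.5 apart, with a median distance of 0.35.

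**Figure D2:**
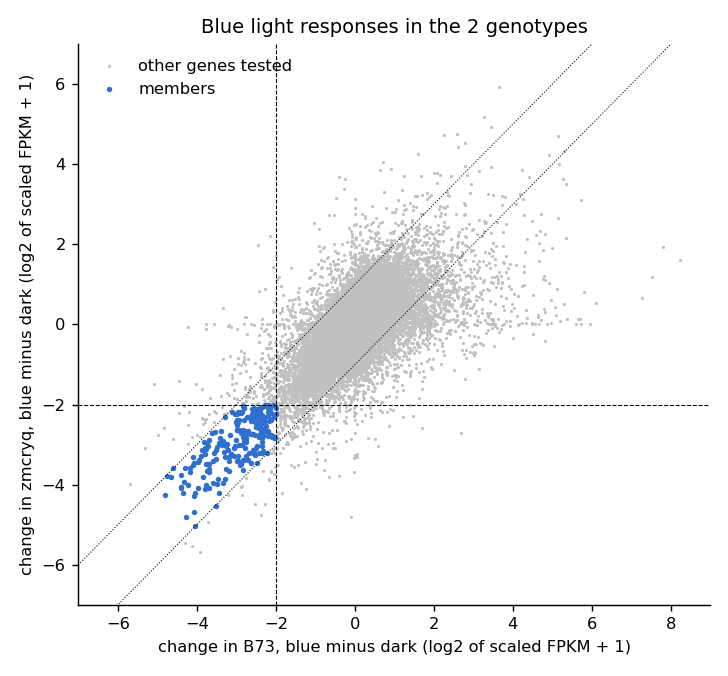
Change on blue light in zmcryq against the change in B73, each as the difference of group means of log2(scaled FPKM + 1), for all 21472 genes tested. Dashed lines mark changes of -2 and dotted lines a difference of 1 between the genotypes; the 219 members in blue fill the corner these lines enclose.

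Without scaling, the members' changes lay between -4.8 and -1.97 in B73 (median -2.82) and between -4.4 and -1.3 in zmcryq (median -2.2). The 3 libraries of each kind seldom overlapped. In B73 every blue library lay below every dark library for 216 members, as did 26.6% of all genes tested, and in zmcryq for 217, beside 33.5% of all genes. With the values as deposited the counts were 216 and 216, beside 13.5% and 5.81%. All 6 blue libraries lay below all 6 dark libraries for 209 members after scaling (12.5% of all genes) and for 199 as deposited (3.08%). In limma's fit across all genes, 216 members were called lower in B73 (25.2% of all genes) and 216 in zmcryq (27.8%) at an adjusted p of 0.05. These contrasts chose the members, so nothing is read from those counts.

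The depth of the fall is given by starting level as a description. The rule set a smallest fall for every member, which bounds how far these medians can differ. Whether depth depends on the starting level was therefore not tested. The 73 members of lowest dark level had median log2 changes of -2.52 in B73 and -2.73 in zmcryq. For the 73 middle members these were -2.9 and -2.99, and for the 73 highest -2.95 and -2.97. The log2(FPKM + 1) scale limits how far a low gene can fall. On linear values the order was the other way: a median of 7.85% (B73) and 7.29% (zmcryq) of the dark level was left in the lowest class and 12.4% and 12.8% in the highest. Because of the added 1, the rule allows a low gene a smaller remaining share than a high gene. This order therefore follows in part from the choice, and nothing is read from it.

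Zm00001eb245880 had the deepest mean fall of the 2 genotypes. It was listed in B73 at 45.3, 48.71 and 43.86 FPKM in the dark libraries and at 2.55, 1.7 and 1.03 in the blue ones. In zmcryq it was listed at 35.45, 64.47 and 50.03 FPKM in the dark and at 1.26, 0.56 and 2.7 in blue light. Dark and blue libraries did not overlap in either genotype, and the lowest dark value was more than 10 times the highest blue value. The log2 change was -4.06 ± 0.26 (SE) in B73 and -5.03 ± 0.26 in zmcryq, leaving 4.2% and 1.65% of the dark level.

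Zm00001eb425100 followed, a more abundant transcript. It was listed in B73 at 399.65, 335.45 and 361.52 FPKM in the dark libraries and at 17.17, 7.58 and 13.42 in the blue ones. In zmcryq the dark libraries read 179.72, 283.24 and 183.11 FPKM and the blue libraries 19.28, 16.04 and 15.68. The groups were again apart, with every dark library above 100 FPKM and every blue library under 20. The log2 change was -4.81 ± 0.22 (SE) in B73 and -4.26 ± 0.22 in zmcryq, leaving 3.33% and 4.98% of the dark level. Neither gene differed between the genotypes past the threshold over both lights: the difference, zmcryq minus B73, was 0.12 ± 0.19 (SE; limma adjusted p 0.61) for Zm00001eb245880 and 0.01 ± 0.15 (limma adjusted p 0.96) for Zm00001eb425100.

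At the edges of the rule, genes just inside and just outside were alike in size. Nearest the B73 limit, the 2 closest members changed by -2.006 and -2.006 in B73, and the 2 closest genes left out by -1.992 and -1.988. Nearest the zmcryq limit, the members changed by -2.003 and -2.021 in zmcryq and the genes left out by -1.993 and -1.993. For the distance between the genotypes, the closest members were 0.998 and 0.998 apart, and the closest genes left out 1.018 and 1.031. In all, 453 genes fell by 2 or more in B73, 551 in zmcryq and 270 in both, and 51 of the 270 were left out because their falls were 1 or more apart. In limma's test of the difference of the responses, 20 members were called with a shallower fall in zmcryq and 11 with a deeper one, beside 10.8% and 15.0% of all genes in the same directions. The rule bounded this difference, so these counts are a description.

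The level of the members in one genotype against the other, averaged over dark and blue light, is the contrast that the rule did not use directly: it is orthogonal to both blue responses. The choice still bears on it, since the rule needs a mean dark level of 2 or more (log2) in both genotypes. Only 13503 of the tested genes had that level, and the shares over all genes include the rest. The contrast was tested with limma across all 21472 genes. After scaling, 83 members were higher in zmcryq (37.9%) and 38 lower (17.4%), beside 31.7% and 31.7% of all genes. The other 98 did not pass the test. The median difference, zmcryq minus B73, was 0.21 (log2) for the members and 0.02 for all genes. Most differences were small: 12 members were called at 2-fold or more higher and 13 at 2-fold or more lower, and 96 of the 121 called differed by less. Of all genes tested, 6807 were called higher and 6811 lower, 1584 and 2184 of them at 2-fold or more. Most called differences were thus small among all genes too. Without replicate 2 of B73 blue, 80 members were higher and 38 lower, and without replicate 1 of zmcryq dark 72 and 42.

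This balance of higher over lower members rested on the scaling. With values as deposited, 13 members were called higher and 29 lower, beside 10.7% and 18.6% of all genes, so that 31% of the called members were higher, against 68.6% after scaling and 70.5% after quantile normalization. The unscaled median difference was 0.01 for the members and -0.11 for all genes. Relative to the median of all genes, the members' median was higher in zmcryq in both forms, whereas the direction of most calls turned with the scaling.

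In the dark alone, 61 members were higher in zmcryq and 37 lower after scaling, beside 25.1% and 24.7% of all genes. As deposited these counts were 1 and 25, beside 4.52% and 14.5%. After blue light, 69 were higher and 30 lower (26.9% and 28.1% of all genes), and as deposited 15 and 10 (11.6% and 11.0%). After scaling, 42 members were called higher and 22 lower both in the dark and in blue light, and 2 were called in opposite directions. A further 32 were called only in the dark and 33 only in blue light, while 88 were called in neither. The rule keeps the dark and blue differences of a member less than 1 apart, so these are not separate pieces of evidence. No share over all genes is given beside these joint counts, so nothing particular to the members is read from them.

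**Figure D3:**
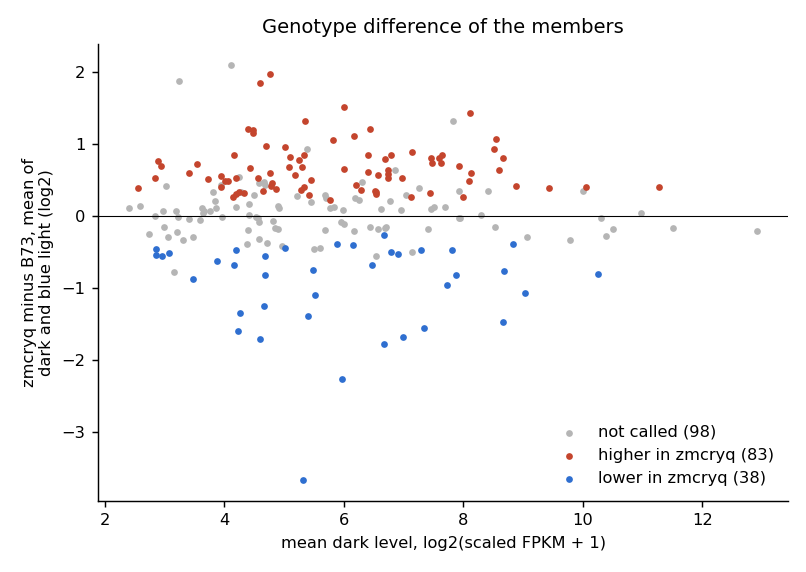
Genotype difference of each of the 219 members, zmcryq minus B73 averaged over dark and blue light (log2 scale), against the mean dark level as log2(scaled FPKM + 1). Of the points, 83 are called higher in zmcryq, 38 lower and 98 not called after scaling, and most lie within 1 of zero; as deposited the called counts were 13 and 29.

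Zm00001eb427050 had the largest genotype difference of any member. It was listed in the dark at 224, 169.66 and 124.99 FPKM in B73 and at 5.18, 9.81 and 5.49 in zmcryq. In blue light it was listed at 18.06, 6.93 and 12.98 FPKM in B73 and at 0.54, 0.17 and 0.07 in zmcryq. The mutant libraries lay below the B73 libraries in both lights, and the B73 blue libraries overlapped the zmcryq dark ones. The difference over both lights was -3.66 ± 0.13 (SE; limma adjusted p 6.6e-10). From these different starting levels the log2 change on blue light was -3.73 ± 0.19 in B73 and -3.03 ± 0.19 in zmcryq, and 6.94% and 2.48% of the dark level was left. The fall was thus shallower in zmcryq on log2(FPKM + 1) and deeper on linear values. The zmcryq blue libraries, at 0.427, 0.196 and 0.0426 scaled FPKM, lie below the added 1, which limits the first measure, so which genotype fell further is not decided for this gene.

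Zm00001eb100710 was likewise lower in the mutant in both lights, but its B73 blue libraries lay below the zmcryq dark ones. It was listed in the dark at 205.56, 171.33 and 124.31 FPKM in B73 and at 14.41, 25.79 and 15.18 in zmcryq. In blue light it was listed at 10.76, 4.62 and 7.89 FPKM in B73 and at 1.19, 1.15 and 1.73 in zmcryq. No mutant library reached the lowest B73 library of the same light. The genotype difference over both lights was -2.26 ± 0.12 (SE; limma adjusted p 1.9e-08), and blue light left 4.48% of the dark level in B73 and 4.53% in zmcryq. The log2 change was -4.3 ± 0.17 (SE) in B73 and -3.59 ± 0.17 in zmcryq. The zmcryq blue mean of 1.11 ± 0.197 scaled FPKM (SD) lies near the added 1, which limits this measure.

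In the other direction, Zm00001eb204420 was listed in the dark at 16.14, 13.81 and 8.28 FPKM in B73 and at 23.62, 46.41 and 34.54 in zmcryq. In blue light it was listed at 3.14, 1.34 and 1.92 FPKM in B73 and at 11.38, 8.89 and 13.17 in zmcryq. The mutant was higher in each light with no overlap of libraries. The difference over both lights was 1.84 ± 0.13 (SE; limma adjusted p 2.5e-07), while the blue changes were -2.11 ± 0.19 in B73 and -2.22 ± 0.19 in zmcryq, leaving 16.4% and 19.9%.

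Zm00001eb402150 was the called member with the largest excess in zmcryq, and its replicates varied most among the named genes. The B73 libraries listed it at 7.28, 23.25 and 11.5 FPKM in the dark and, all 3 of them, at 0 in blue light. In zmcryq it was listed at 21.64, 65 and 51.99 FPKM in the dark and at 2.7, 0 and 19.62 in blue light. As deposited, the zmcryq blue libraries thus ranged from 0 to a value near the lowest dark library. These 2 libraries, replicate 3 of zmcryq blue and replicate 1 of zmcryq dark, had the highest and lowest scaling factors. After scaling they stood at 11.9 and 42.6 FPKM. The difference over both lights was 1.98 ± 0.55 (SE; limma adjusted p 0.01), and its size depended on the pseudocount: it was 3.03 with 0.1 and 1.3 with 5 in place of 1.

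**Figure D4:**
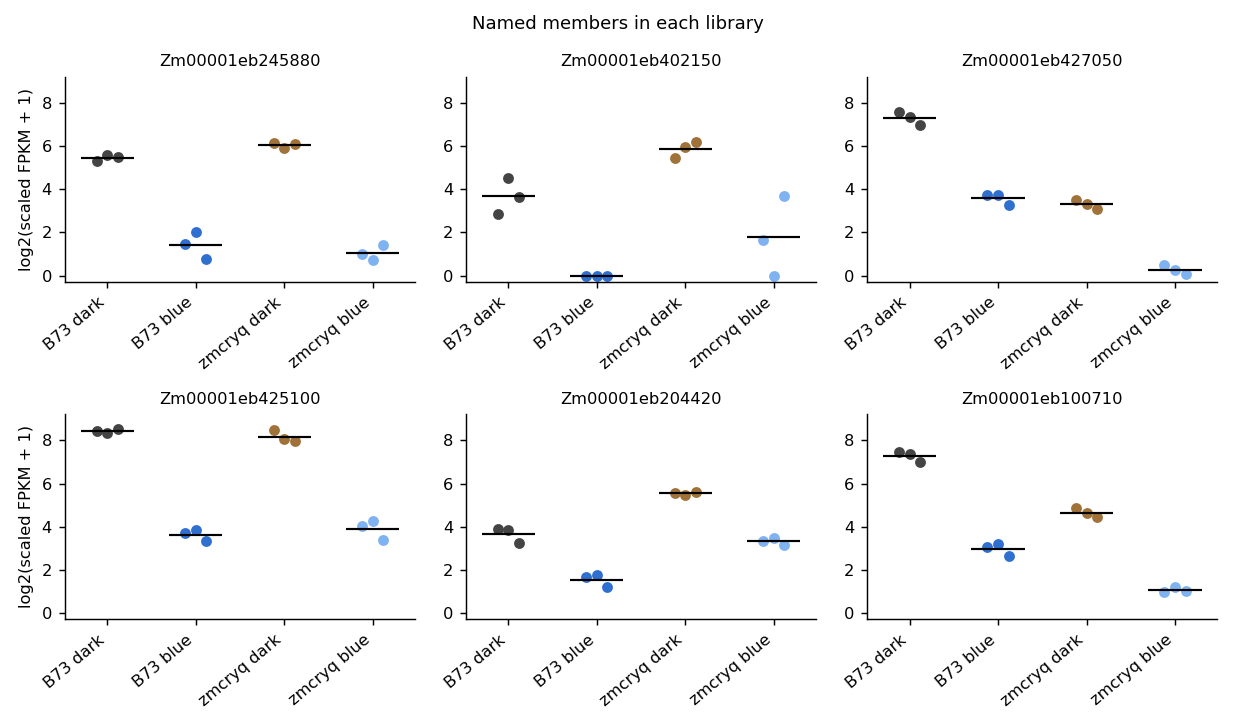
Level of the 6 named members in every library, as log2(scaled FPKM + 1), with a point per library and a line at the mean of 3. The left column shows the deepest mean falls, the middle column the largest called excess in zmcryq and the right column the largest called deficit; every blue library lies below the dark libraries of the same genotype, and the zmcryq blue libraries of Zm00001eb402150 spread from 0 to 11.9 scaled FPKM.

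Other strongly repressed genes are set beside the members here for the genotype difference over both lights. A difference of 2-fold or more was measured for 28 of the 219 members (12.8%), beside 17.9% of all genes tested. It was 25.5% for the 51 genes that fell in both genotypes by amounts 1 or more apart, 42.1% for the 183 that fell by 2 or more in B73 only and 32.7% for the 281 that did so in zmcryq only. The rule needs a minimum dark level in both genotypes, whereas the B73 only and zmcryq only sets need it in that genotype alone. Part of the contrast can therefore follow from how the sets were cut, and the difference between these sets of genes was not tested.

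Members also occurred next to each other in the table, whose rows run in ascending order of gene ID. This was looked at after the values had been seen and is a description. In 13 cases consecutive rows were both members, which involved 26 genes, or 11.9% of the members. The members had 243 tested neighbours in the rows directly before and after them, counting a row beside 2 members once for each. Of these neighbours 26 were members (10.7%), whereas members are 1.02% of all tested genes. The distinct rows beside members that were not members themselves numbered 216, and 32 of these (14.8%) fell by 1 or more in both genotypes, beside 4.66% of all tested genes that were not members. No run was longer than 2 rows.

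The 13 pairs varied in how alike their genes were. Dark levels within a pair, averaged over both genotypes on the log2 scale, were less than 2-fold apart in 5 of the 13. Mean falls were within 1 log2 unit in 10, and genotype differences in 11. The row before Zm00001eb427050 is also a member, and there the genotypes were closer together. In B73 it stood at 37.9 ± 10.6 scaled FPKM in the dark and 2.6 ± 0.439 in blue light, and in zmcryq at 39.2 ± 1.1 and 4.65 ± 0.669 (SD, n = 3 each). Its genotype difference was 0.37 ± 0.12 (SE; limma adjusted p 0.022), against -3.66 for Zm00001eb427050. In the dark, Zm00001eb427050 stood at 161 scaled FPKM in B73 and 8.95 in zmcryq. Its pair is therefore among the 5 with similar dark levels only through the averaging over genotypes. The sources used here do not say how fragments shared by near-identical or overlapping genes were assigned, so similar values of neighbouring IDs are uncertain to that extent.

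One stretch of the table was denser than the others. Within 100 consecutive rows, 46 of them tested, 9 genes were members, and a further 5 fell by 1 or more in both genotypes. Outside that stretch no 100 rows held more than 4 members, and of 444 successive blocks of 100 rows 285 held none, 114 held 1 and 35 held 2. In B73 the 9 genes spanned 4.4 to 64.4 scaled FPKM in the dark and 0.151 to 7.18 in blue light. Their span in zmcryq was 4.77 to 114 in the dark and 0.0726 to 23.7 in blue light. Their log2 changes lay between -3.86 and -2.21 in B73 and between -3.15 and -2.11 in zmcryq. Over both lights 2 of the 9 were called higher in zmcryq and 2 lower, and only 2 of the 9 stood in consecutive rows. Whether neighbouring IDs are neighbours in the genome was not examined here, because the reference table does not hold these IDs.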

How the data were processed

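The authors deposited 1 table of 44303 genes with a value for each of 12 libraries; its 4 columns of group means were left out. The deposited values were read as FPKM; no header or label states the unit, and TPM over a larger gene set cannot be told apart. The submitters' processing notes name Trimmomatic 0.36, HISAT2 2.2.1.0, TopHat, Bowtie2, Cufflinks and DESeq 1.18.0, without role or order. The sources used here give no genome build, annotation, use of strand or mapped depth, so precision rests on the 3 libraries per group.

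A gene was kept where 3 or more libraries reached 1 FPKM (21472 genes) and libraries were divided by median-ratio factors. For each gene, limma fitted the 4 group means of log2(scaled FPKM + 1), version 3.58.1 in R 4.3.3 (trended, robust moderation; Benjamini-Hochberg over all genes; 2-sided). The fit was tested on simulated data. Fold changes on this scale understate those of low genes. Alternatives were no scaling, quantile normalization, pseudocounts of 0.1 and 5, no filter, a minimum of 5 FPKM, array weights, the replicate block and leaving out each library. Members and gene lists were chosen with earlier results of these data known. Named genes were the 2 members with the lowest mean blue change and the 2 called members with the largest genotype difference in each direction. The name-based lists and the promoter motifs planned with them were not used, since the IDs could not be matched to names or sequences.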

Additional observations from a re-analysis of the deposited data

How the results depend on the processing

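The number of genes that meet the rule depended on the scale: 127 without scaling (109 of the 219 among them), 351 with a pseudocount of 0.1 (185 shared) and 117 with a pseudocount of 5 (111 shared). Without scaling, the members called higher in zmcryq were 13 over both lights, 1 in the dark and 15 in blue light, and those called lower in blue light were 10; with a pseudocount of 5 the last count was 18. The cause of these shifts was not tested. All other counts over members stayed within 1.5 times under the alternatives run, and the 4 named genotype differences over both lights that had passed the test kept their direction and passed it, while the other 2, near 0, did not pass it. Leaving out each library gave 207 to 233 genes by the rule, with 197 to 215 of the 219 kept. The counts higher and lower in zmcryq then ran from 72 to 92 and from 35 to 42 over both lights, from 46 to 67 and from 28 to 40 in the dark, and from 55 to 78 and from 21 to 40 in blue light. The labels do not say that a replicate number marks anything shared. Correlations of same-numbered deviations ran from -0.304 to 0.315 across all genes, so the numbers were not taken as pairs. Across the members alone they were 0.175 to 0.356 between the genotypes in the same light and -0.221 to 0.516 in the other combinations. With the replicate block the counts over both lights were 88 and 37. Without mapped depth, no counting error can be given for values near 0.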
